A study of Mus musculus with 21 samples.

Results

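Claudins and the proteins that join them at the tight junction were followed through testis development in the mouse, from gestation day (gd) 11 to postnatal day (pnd) 2. The members were 8 claudin genes (Cldn1, Cldn3, Cldn4, Cldn5, Cldn6, Cldn7, Cldn11 and Cldn12), the scaffold gene Tjp1 and the occludin gene Ocln. They were taken by the symbol that the platform's annotation gives each probe set, a group of short oligonucleotides on the array that reports 1 transcript. This gave 18 of 45101 probe sets, and 10 of the 18193 genes named by probe sets that carry 1 gene. All values of a member below come from 1 probe set, the one with the highest mean over the testis arrays, unless another is named.

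Whole testes of wild-type male CD-1 mice, an outbred stock, were excised, snap frozen and hybridised to single-channel oligonucleotide arrays. There were 5 arrays of gd11 (Theiler stage 18), made from pools of 2, and 3 arrays of gd12 (stage 20), made from pools of 5. Each older stage had 3 arrays of testes for which no pool size is given: gd14 was Theiler stage 22, gd16 was 24, gd18 was 26 and pnd2 was 27. The series' design text instead gives triplicates, each 1 animal's testis pair from its own dam, which cannot hold for the pooled stages, and the sample labels were followed. All testis groups share genotype, stock and sex, and the labels name no treatment. A reference array held a pool of 8 whole newborns of pnd 0.5, 4 male and 4 female, whose strain the labels do not give. Its source label reads testes, while its title and protocol describe whole newborns. The sample labels do not say that arrays of a stage came from separate litters, so p-values measure the spread between arrays, and at gd11 and gd12 between pools. Replicates are numbered 1 to 21 through the series.

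Tight junctions seal the space between neighbouring epithelial or endothelial cells near their apical border. Claudins are membrane proteins that span the membrane several times and form the strands of the junction, each with its own barrier or pore property; occludin is a further membrane component, and the zonula occludens proteins anchor the strands to actin. In the testis, claudin-11 is a main strand protein of the Sertoli cell junctions that later make the blood-testis barrier, which closes around puberty, after the stages studied here.

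Every array had a trimmed mean intensity of 500, the level to which the authors' software scaled it, and arrays of a stage correlated at 0.934 to 0.979 over all probe sets. The number of arrays limits the precision. The summed intensity of 8 Sertoli cell markers, which include Amh and Sox9, was 1778 to 3307 at gd11, 17314 to 27442 at gd12 and at least 37432 on every later testis array. The tissue label thus had its defining markers from gd12 on, while 4 to 6 of the 8 lay above 71.6 at gd11. The term near background is used for an intensity under 71.6, which 40% of testis values do not exceed. Neural markers, 7 genes that include Nefl and Nefm, summed to 61269, 38061, 5632, 3988 and 8897 on gd11 replicates 16 to 20 and to 529 to 610.1 at gd14. Replicates 16 and 17 therefore stood apart at gd11. At gd12, replicate 13 held the highest sum of 6 adrenal markers, which include Cyp21a1 (2706, 742 and 744 on replicates 13 to 15). Replicate 14 did not stand apart from 15 in that sum. The neural sum at gd12 was 3608, 2431 and 728 in the same order. Calls of members that were lost, gained or moved by over 1.5 times without gd11 replicates 16 and 17 or gd12 replicates 13 and 14 are given with and without them.

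The members fell into genes that were highest at gd11 and genes that were highest later. The gd11 group held 6 of the 10, namely Cldn3, Cldn4, Cldn5, Cldn6, Cldn7 and Cldn12, and 23.8% of all 14338 genes tested were highest at gd11. The members were chosen with earlier results of these data known. Shares of all genes, here and below, are therefore given for scale only. Cldn1 was highest at gd18, Cldn11 and Ocln at pnd2, and Tjp1 at gd12, level with gd14. The highest and lowest stage means lay at least 2-fold apart for 7 members, against 37.5% of all genes. By limma's moderated F-test over the 6 stages, with Benjamini-Hochberg adjustment over all genes, 9 of 10 members varied with stage, against 68.3% of all genes. The member that was not called was Cldn3 (adjusted p = 0.136). In whole tissue, fewer cells of a type and less RNA per cell cannot be told apart.

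**Figure D1:**
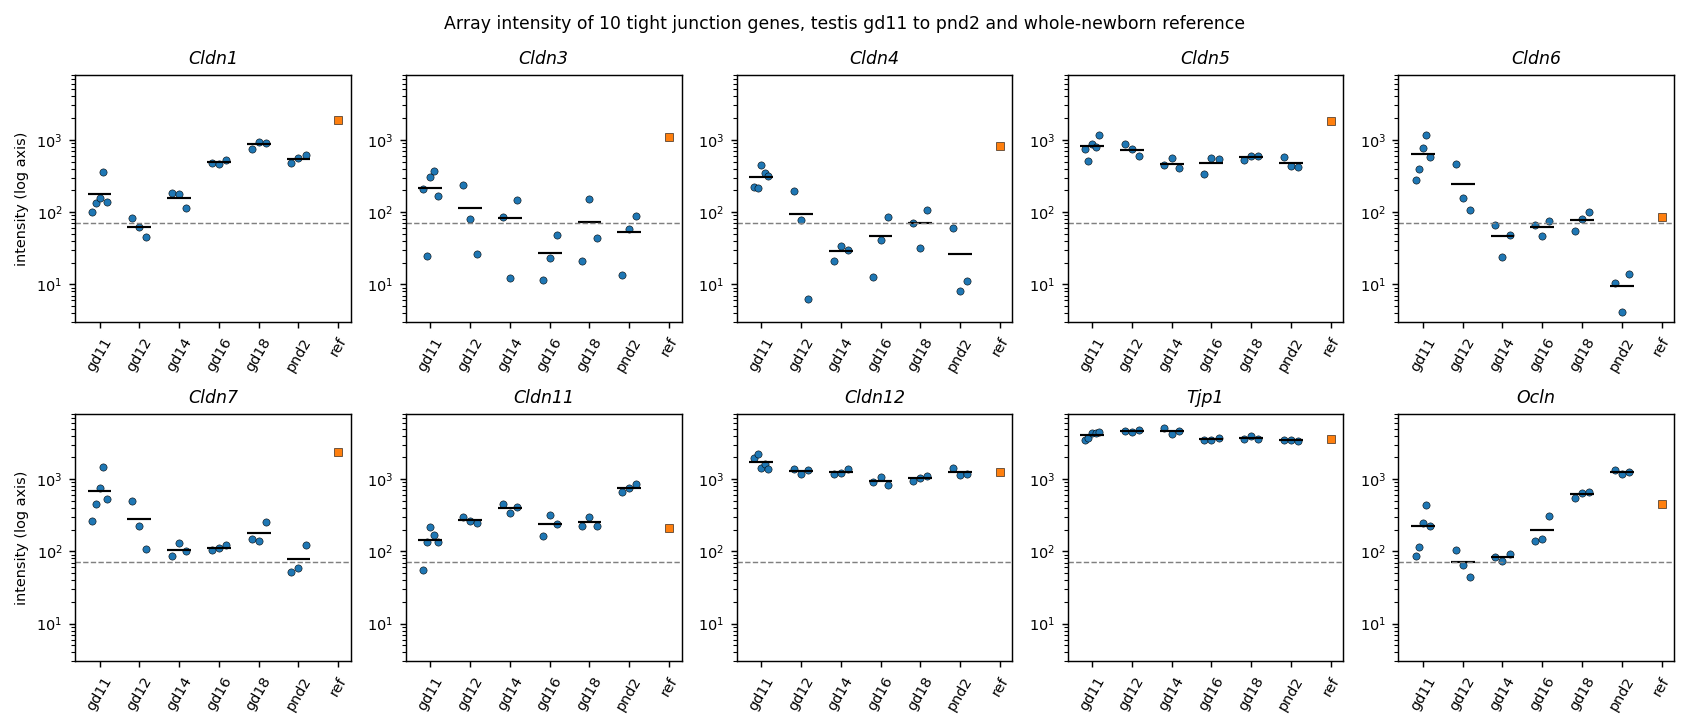
Intensity of each member on every testis array by stage, on a log axis, with the stage mean as a black bar, the reference array as an orange square and 71.6 as a dashed line. Cldn6 and Cldn7 start at means of 635 and 694 at gd11 and end at 9.53 and 77.4, while Ocln ends at 1254.

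Among the claudins of epithelial barriers, Cldn4, Cldn6 and Cldn7 fell from gd11 to pnd2, and most of the fall lay between gd11 and gd14. Promoter sequence of these 3 genes is shown here because they fell. That of Cldn3, a neighbour of Cldn4 on chromosome 5, is shown for comparison. The change of Cldn3 was not called by its representing set, but its other sets were lower at pnd2, as given below. The sequences are the 250 bases before the RefSeq start (GRCm38.p6), read 5′ to 3′ on the strand of the gene. Cldn3 lies at chr5:134985964-134986213, plus strand, and Cldn4 at chr5:134946935-134947184, minus strand. Cldn6 lies at chr17:23679115-23679364, plus strand. Cldn7 has 2 listed starts, at chr11:69964529-69964778, plus strand, and chr11:69965171-69965420, plus strand. Capitals mark CACCTG on either strand, an E-box bound by Snail and Zeb repressors, and this motif was chosen for marking after the matches of all motifs had been seen.
Cldn3: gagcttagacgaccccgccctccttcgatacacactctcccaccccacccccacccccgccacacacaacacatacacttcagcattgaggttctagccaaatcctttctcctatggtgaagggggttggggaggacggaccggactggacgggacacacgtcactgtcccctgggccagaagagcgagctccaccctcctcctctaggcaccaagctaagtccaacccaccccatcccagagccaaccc
Cldn4: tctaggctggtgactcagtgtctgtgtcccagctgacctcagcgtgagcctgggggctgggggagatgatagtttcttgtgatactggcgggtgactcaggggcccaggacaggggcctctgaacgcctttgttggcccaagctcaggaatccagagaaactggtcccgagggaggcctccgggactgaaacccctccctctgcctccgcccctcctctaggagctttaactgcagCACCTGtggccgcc
Cldn6: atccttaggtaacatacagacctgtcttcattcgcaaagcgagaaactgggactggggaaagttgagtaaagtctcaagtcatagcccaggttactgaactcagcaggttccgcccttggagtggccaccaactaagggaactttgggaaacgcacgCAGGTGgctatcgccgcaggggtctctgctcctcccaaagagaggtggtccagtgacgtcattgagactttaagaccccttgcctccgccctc
Cldn7 first start: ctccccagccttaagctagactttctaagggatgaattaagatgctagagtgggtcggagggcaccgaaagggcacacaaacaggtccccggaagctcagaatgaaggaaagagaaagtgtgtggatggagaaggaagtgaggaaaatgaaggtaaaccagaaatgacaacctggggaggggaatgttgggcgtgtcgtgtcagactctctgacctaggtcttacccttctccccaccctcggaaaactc
Cldn7 second start: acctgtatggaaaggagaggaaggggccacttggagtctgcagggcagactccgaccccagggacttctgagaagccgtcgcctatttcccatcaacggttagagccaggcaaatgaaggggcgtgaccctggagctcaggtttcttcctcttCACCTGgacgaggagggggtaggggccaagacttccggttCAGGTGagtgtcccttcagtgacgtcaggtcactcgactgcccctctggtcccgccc

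In these windows CACCTG was found 1 time each for Cldn4 and Cldn6, 2 times at the second start of Cldn7, and 0 times for Cldn3 and at the first start of Cldn7. Of 32841 mouse promoters of the same length, 17.2% hold it. Of the other members, Ocln held it 2 times at its second listed start and 0 times at its first, and Cldn1, Cldn5, Cldn11, Cldn12 and Tjp1 had 0 matches. The other motifs searched on both strands were GGGCGG (32.7% of promoters), TATAAA (12.4%), CCAAT (33.9%), AACCNGTT (1.79%) and AGATAA (9.99%). GGGCGG was found for 9 of the 10 members, at all listed starts except the first of Cldn7 and the first of Cldn12, and not for Cldn11. TATAAA and AGATAA were found in no window of the 10 members. AACCNGTT was found for Cldn5 alone, and CCAAT for Cldn5, Cldn11, the later 2 starts of Cldn12 and the second start of Ocln. A match describes the letters only.

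Cldn6 (probe set 1417845_at), a claudin of embryonic epithelia, had intensities of 276, 389.7, 772, 1162 and 575 on gd11 replicates 16 to 20. At gd12 it stood at 464, 158 and 106, at gd14 at 67.1, 23.6 and 48.5, and at gd16 and gd18 it ran from 46.2 to 98.9. At pnd2 the arrays read 10.6, 4.09 and 13.9. The gd11 and gd12 ranges overlapped, since gd12 replicate 13 lay among the gd11 arrays, and every array from gd14 on lay below both stages. The fall to gd12 was called (log2 change -1.39 ± 0.41 SE, adjusted p = 0.0215), as was the one to gd14 (log2 change -1.76 ± 0.46 SE, adjusted p = 0.0119). The gd12 call was lost without gd12 replicate 14, at -1.23 (adjusted p = 0.0916), and without replicate 15, at -0.98 (adjusted p = 0.165). The gd14 call was lost without gd12 replicate 13, at -1.20 (adjusted p = 0.0795), and without gd14 replicate 11, at -1.49 (adjusted p = 0.0607). From gd18 to pnd2 a further fall was called, from 78 ± 22.1 to 9.53 ± 4.99 (log2 change -1.64 ± 0.46 SE, adjusted p = 0.0349), with no overlap. That call was lost without any 1 of gd18 replicates 5 and 6 and pnd2 replicates 1, 2 and 3, where the change was -1.61 (adjusted p = 0.0875), -1.49 (adjusted p = 0.129), -1.67 (adjusted p = 0.0824), -1.51 (adjusted p = 0.115) and -1.74 (adjusted p = 0.0697). It was also lost with the pseudocount at the 40th percentile, at -0.87 (adjusted p = 0.166). Over the whole course Cldn6 went from 635 ± 349.6 to 9.53 ± 4.99 (SD; log2 change -4.21 ± 0.41 SE, adjusted p = 9.73e-08), and this call was kept in all 20 fits that left out 1 array.

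Cldn7 (1448393_at), a claudin of the lateral membrane of many epithelia, read 259, 459, 746, 1479 and 524 at gd11. It read 499, 225 and 108 at gd12, and ran from 52.3 to 253 on the 12 later arrays. Replicate 19 was far above the other gd11 arrays, the gd11 and gd12 ranges overlapped, and the lowest gd11 value was just above the highest value from gd14 on. The fall from 694 ± 472 to 277 ± 201 passed narrowly (log2 change -1.26 ± 0.43 SE, adjusted p = 0.0452), with overlapping ranges. It was lost in 15 of the 20 fits without 1 array, where the change ran from -1.77 to -0.77. The lowest size came without gd12 replicate 15, at -0.77 (adjusted p = 0.296), and the other losses were the fits without gd11 replicates 18, 19 and 20, gd12 replicate 14, any array of gd14 or gd16, gd18 replicates 4 and 5 and pnd2 replicates 1 and 2. It was lost as well with no filter (adjusted p = 0.0568) and with no intensity trend (adjusted p = 0.0613). The change to gd14 was not called (-1.01, adjusted p = 0.16), though it was without gd12 replicate 15, at -1.50 (adjusted p = 0.0478), and it was -0.50 (adjusted p = 0.556) without gd12 replicate 13. From gd11 to pnd2, where it stood at 77.4 ± 38.7, the fall had no overlap and was kept in all 20 (log2 change -2.68 ± 0.43 SE, adjusted p = 4.50e-05).

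Cldn4 (1418283_at), a sealing claudin and receptor of a bacterial enterotoxin, read 224, 217, 444, 347 and 316 at gd11 and 196, 78.4 and 6.26 at gd12. The 12 later arrays ran from 8.16 to 107. All 5 gd11 arrays lay above every other testis array, and of the 20 testis arrays 9 were above 71.6. The fall from 309.8 ± 94.1 to 93.4 ± 95.5 was called (log2 change -1.91 ± 0.51 SE, adjusted p = 0.0124), and was lost without gd12 replicate 15, the lowest array of that stage, at -1.12 (adjusted p = 0.131). Without that array the change from gd12 to gd14 was called, at -1.55 (adjusted p = 0.0478), while with it the change was -0.76 (adjusted p = 0.398) and without gd12 replicate 13 it was -0.09 (adjusted p = 0.942). By pnd2 the level was 26.6 ± 29.5 (log2 change -2.87 ± 0.51 SE, adjusted p = 0.000132), called in all 20 fits without 1 array.

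Cldn3 is a sealing claudin whose gene neighbours Cldn4, and it was measured by 4 probe sets that all passed the filter on dim values. Its representing set, 1434651_a_at, read 211, 24.6, 307, 373 and 169 at gd11 and 238, 80.4 and 26.1 at gd12. Later arrays ran from 11.3 to 152, so that the ranges of all stages overlapped, with gd11 replicate 17 at the low end. Its change from 217 ± 134 to 53.2 ± 37.7 was not called (log2 change -1.51 ± 0.69 SE, adjusted p = 0.0776), nor was any adjacent change. Without gd11 replicate 17 it was called, at -2.02 (adjusted p = 0.0111), and without pnd2 replicate 1 it was -1.04 (adjusted p = 0.303). The other 3 sets, fitted with every probe set on its own, were all lower at pnd2. The changes were -1.70 (adjusted p = 0.00772) for 1426332_a_at, -1.88 (adjusted p = 0.000347) for 1451701_x_at and -1.47 (adjusted p = 0.00954) for 1460569_x_at. The set 1426332_a_at lay above 71.6 on only 5 testis arrays, 3 of them at gd11, where it was highest. Its fall from gd11 is thus not independent of the filter. With the mean of its probe sets Cldn3 was called lower at pnd2, at -1.64 (adjusted p = 0.00253). The sets thus shared a direction and differed in whether the test was passed, and the _x_at sets may bind other transcripts by their design.

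The gd11 arrays differed among themselves in these genes. Over the 10 members, replicate 18 was among the 2 highest gd11 arrays for 9 and replicate 19 for 7, against 43.4% and 41.9% of all genes tested. Replicate 17 was among the 2 lowest for 9 and replicate 16 for 8, against 42% and 47% of all genes. For Cldn1, Cldn3, Cldn4, Cldn6, Cldn7 and Ocln, a set picked after these values were seen, the 2 highest arrays were replicates 18 and 19 in all 6. The 6 markers of duct and mesonephros epithelium that were measured, which include Pax8 and Lhx1, summed to 3189.6, 4363, 7989, 11392 and 5267 on replicates 16 to 20. Replicates 18 and 19 were each among the 2 highest for 5 of the 6 markers. The 8 surface epithelium markers summed to 3405, 7663, 11036, 11491 and 9051 in the same order, and the neural sum, given above, was highest on replicates 16 and 17 and lowest on 19.

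At gd12, replicate 13 was the highest array for 9 of 10 members, against 38.4% of all genes, and replicate 15 the lowest for 8, against 31.3%. The duct sum there was 4604, 4285 and 3493 on replicates 13 to 15. It was 2536 to 2784 at gd14, 862 to 1173 at gd16, 706 to 962 at gd18 and 890.3 to 1112 at pnd2. Of its 6 genes, 5 fell from gd11 to pnd2, against 24.4% of all genes. No gene of the list was at 0 on any array, but some were near background. On the arrays of a stage, 6 lay above 71.6 at gd11 and gd12 and 5 at gd14. The number was 2 to 4 at gd16, 4 at gd18 and 5 to 6 at pnd2. The lowest values were those of Lhx1 and Cdh16, and the list's Emx2 is also a gene of the gonad's own surface epithelium and Cdh1 one of germ cells. From gd11 to gd14 the duct sum and the stage means of Cldn4, Cldn6 and Cldn7 were all lower with age. From gd14 to gd18 the duct sum went on to lower values, while the stage means went from 28.5 to 69.7 for Cldn4, from 46.4 to 78 for Cldn6 and from 106 to 181 for Cldn7, with no adjacent step called. At pnd2 the 3 means were lower than at gd18 and the duct sum was not. The part of the duct markers in the falls was not tested.

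These arrays moved several results. Of Cldn1, Cldn3, Cldn4, Cldn6, Cldn7 and Ocln, gd11 replicates 16 and 17 were among the 2 lowest gd11 arrays for 5 and 6. Omitting gd12 replicates 13 and 14 leaves replicate 15, the lowest gd12 array for all 6 by the representing sets. Larger falls of these genes without these arrays thus follow from which arrays were left out. Other probe sets differed in this order. Replicate 15 was the highest gd12 array for 1450014_at of Cldn1, at 52.8. For 1460569_x_at of Cldn3 and 1440220_at of Ocln the lowest was replicate 14, and for 1426332_a_at and 1451701_x_at of Cldn3 it was replicate 15. Without gd11 replicates 16 and 17 the fall of Cldn6 to gd12 was -1.88 (adjusted p = 0.00199). Without gd12 replicates 13 and 14, or both pairs, it was -2.20 and -2.69. With both pairs left out, which leaves 1 gd12 array assumed to vary like the rest, the gd12 change of Cldn3 was -2.59. Without gd11 replicates 18 and 19, chosen after their values were seen, the changes at gd12 were -1.66 (adjusted p = 0.0486) for Cldn4, -0.90 (adjusted p = 0.118) for Cldn6 and -0.71 (adjusted p = 0.21) for Cldn7. From gd11 to pnd2 they remained -2.63 (adjusted p = 0.00139), -3.73 (adjusted p = 8.63e-07) and -2.14 (adjusted p = 0.000256) under the same omission. The call of Tjp1 at pnd2 against gd11 was lost there, at -0.16 (adjusted p = 0.187).

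Without gd12 replicates 13 and 14, the gd12 level rests on replicate 15 alone. The changes at gd12 were then -3.49 for Cldn4 and -2.23 for Cldn7, and the call of Cldn11 was lost, at 0.78. The gd14 calls of Cldn6 and Cldn1 were lost too, at -0.95 and 1.39. Without both pairs the gd12 changes, from the same single gd12 array, were -1.72 for Cldn1, -3.76 for Cldn4 and -2.72 for Cldn7. They were -2.25 for Ocln and 0.46 for Cldn11. Without gd11 replicates 16 and 17 alone, some changes that do not involve gd11 were called. These were Cldn5 at gd14, at -0.62 (adjusted p = 0.0266), and 3 members at gd16, namely Cldn11 at -0.73 (adjusted p = 0.0221), Cldn12 at -0.41 (adjusted p = 0.023) and Ocln at 0.99 (adjusted p = 0.0182). Ocln at pnd2 against gd18 was another, at 0.98 (adjusted p = 0.0224). Cldn3 at pnd2 against gd11 was called in the same fit, at -2.10 (adjusted p = 0.0108). Without both pairs Cldn7 at pnd2 against gd18 was called as well, at -1.05 (adjusted p = 0.0355).

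**Figure D2:**
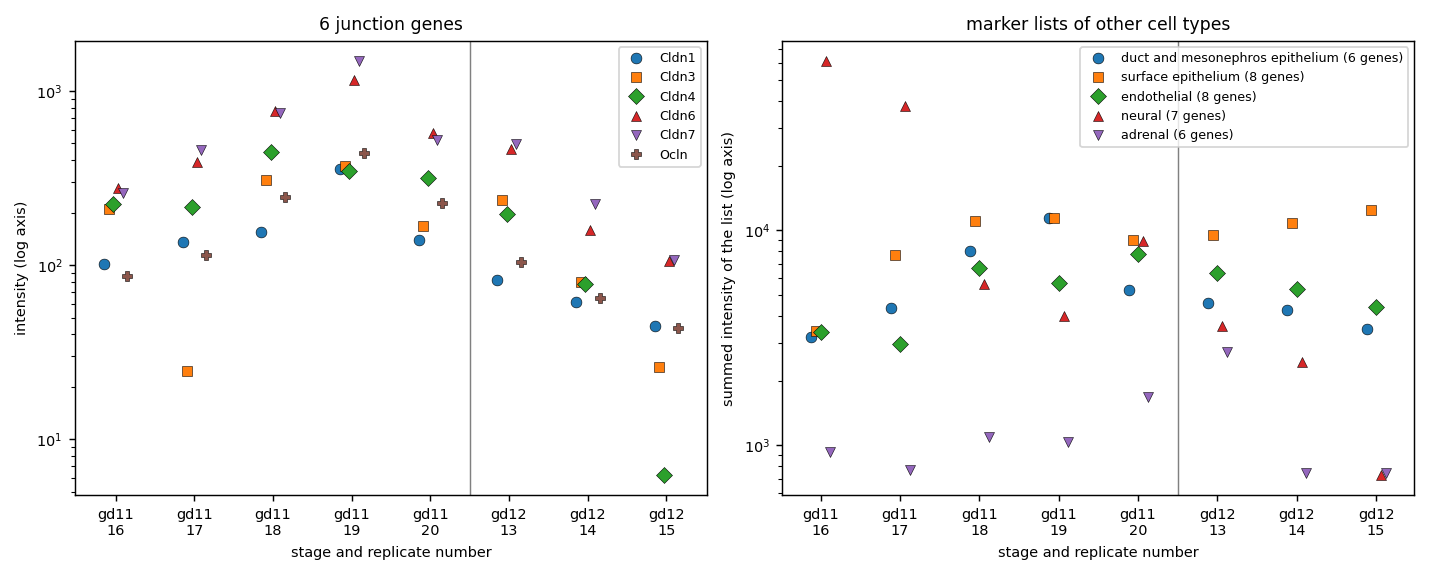
Intensities of 6 members (left) and summed intensities of marker lists (right) on the 5 gd11 and 3 gd12 arrays, on log axes, with markers of an array shifted sideways for legibility. The 6 members peak on gd11 replicates 18 and 19, where the duct sum reaches 11392, and the neural sum peaks on replicate 16.

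Cldn1 and Ocln had their lowest stage mean at gd12, at 63.1 and 71, both near background, and rose afterwards. The adjacent rises called were those to gd14 and gd16 for Cldn1 and that to gd18 for Ocln. Cldn1 (1437932_a_at), whose product makes the barrier of skin and many epithelia, read 102, 136, 155, 359 and 139 at gd11 and 82.7, 61.5 and 45 at gd12. It then read 183, 177 and 113 at gd14, 476, 469 and 528 at gd16, 750.4, 937 and 899 at gd18 and 470.5, 563 and 616 at pnd2. No adjacent pair of stages overlapped, and gd11 replicate 19 stood above the other gd11 arrays. The fall to gd12 was called (log2 change -1.13 ± 0.26 SE, adjusted p = 0.00466) and kept in all 20 fits without 1 array. The rise to gd14 was called (log2 change 1.07 ± 0.29 SE, adjusted p = 0.015), and lost without gd12 replicate 15, at 0.91 (adjusted p = 0.0657), gd14 replicate 10, at 0.97 (adjusted p = 0.0656), or gd14 replicate 11, at 0.99 (adjusted p = 0.058).

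The rise of Cldn1 to gd16 was called (log2 change 1.53 ± 0.29 SE, adjusted p = 0.00308), also in all 20. The step from 491 ± 32.5 at gd16 to 862 ± 98.7 at gd18 was not called (log2 change 0.78 ± 0.29 SE, adjusted p = 0.145), though it was without gd11 replicate 19, at 0.78 (adjusted p = 0.0308), and with the mean of its probe sets, at 0.87 (adjusted p = 0.0278). The step to 549.9 ± 73.8 at pnd2 was not called either (log2 change -0.63 ± 0.29 SE, adjusted p = 0.202). Over the course Cldn1 rose (log2 change 1.62 ± 0.26 SE, adjusted p = 4.45e-05). A second probe set, 1450014_at, gave stage means of 92.4, 33.2, 97.8, 227, 466 and 269 in order of age, the same order of stages at its ends, with gd12 lowest and gd18 highest. The sets 1438850_at and 1438851_x_at stayed near background on all arrays and failed the filter.

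Ocln (1448873_at) encodes occludin. It read 86.1, 114, 247, 438 and 226 at gd11, 105, 64.7 and 43.6 at gd12 and 82.6, 72.9 and 92.2 at gd14. It then read 139, 148 and 306 at gd16, 551, 651 and 674 at gd18 and 1357, 1169 and 1236 at pnd2. The arrays of gd16, gd18 and pnd2 each lay wholly above those of the stage before. The fall to gd12, with overlapping ranges, was called (log2 change -1.25 ± 0.35 SE, adjusted p = 0.0151), and lost without gd12 replicate 14, at -1.23 (adjusted p = 0.051), or 15, at -1.03 (adjusted p = 0.102). Without gd11 replicates 18 and 19 it was -0.78 (adjusted p = 0.0708), and with the mean of its probe sets -1.14 (adjusted p = 0.0521).

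The step of Ocln to gd16 was not called (log2 change 0.99 ± 0.39 SE, adjusted p = 0.115), the rise to gd18 was (log2 change 1.63 ± 0.39 SE, adjusted p = 0.0215), and the step to pnd2 was not (log2 change 0.98 ± 0.39 SE, adjusted p = 0.135). The gd18 call was lost without gd16 replicate 7 or 8, at 1.45 (adjusted p = 0.0911) and 1.49 (adjusted p = 0.113). It was also lost without gd18 replicate 4 or 5, at 1.72 (adjusted p = 0.0695) and 1.60 (adjusted p = 0.0764). From 222 ± 139 at gd11 Ocln rose to 1254 ± 94.8 at pnd2 (log2 change 2.57 ± 0.35 SE, adjusted p = 6.48e-06), kept in all 20. Its second probe set, 1440220_at, rose as well, by 2.15 (adjusted p = 0.0408) from gd16 to gd18 and 1.50 (adjusted p = 0.0211) from gd11 to pnd2. That set was not called at gd12, at -1.02 (adjusted p = 0.168), and its lowest stage mean was at gd14, at 37.2 against 52.5 at gd12. Nor was the step of the first set from gd12 to gd14 called (0.22, adjusted p = 0.757). The next protein-coding gene to Ocln on chromosome 13 is Marveld2, which encodes tricellulin.

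Cldn11 (1416003_at), the claudin of Sertoli cell and myelin junctions, rose in 2 steps. It read 55.7, 137, 215, 171 and 137 at gd11, 300.4, 261 and 245 at gd12 and 456, 345 and 405 at gd14. It read 162, 318 and 242 at gd16, 226, 303 and 226 at gd18 and 671, 745 and 851 at pnd2. All gd12 arrays lay above all gd11 arrays, gd16 lay below gd14, and pnd2 lay above every earlier array. The rise to gd12 was called (log2 change 0.90 ± 0.26 SE, adjusted p = 0.0199), and lost without gd12 replicate 13, 14 or 15, at 0.82 (adjusted p = 0.0654), 0.92 (adjusted p = 0.0533) and 0.96 (adjusted p = 0.0521). Without gd11 replicates 16 and 17 it was 0.58 (adjusted p = 0.0524).

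The changes of Cldn11 to gd14 (log2 change 0.54 ± 0.30 SE, adjusted p = 0.222) and to gd16 (log2 change -0.73 ± 0.30 SE, adjusted p = 0.127) were not called, though the latter was without gd11 replicate 16, at -0.73 (adjusted p = 0.0283). The rise from 252 ± 44.7 at gd18 to 756 ± 90.4 at pnd2 was called (log2 change 1.51 ± 0.30 SE, adjusted p = 0.0049), as was the change over the course from 143 ± 58.5 (log2 change 2.32 ± 0.26 SE, adjusted p = 7.11e-07), both in all 20 fits without 1 array. Of the 8 Sertoli markers, 7 rose from gd11 to gd12, against 11.2% of all genes. At pnd2 against gd18 1 rose and 1 fell, against 2.54% and 5.26% of all genes. Their sum was 49368 to 74267 at gd18 and 57136 to 63196 at pnd2, with overlapping ranges.

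By their representing sets, Cldn5, Cldn12 and Tjp1 had stage means less than 2-fold apart. Cldn5 (1417839_at), the claudin of endothelial junctions, read 752, 510.3, 884, 793 and 1178 at gd11 and 863, 737 and 602 at gd12. From gd14 on all arrays ran from 333 to 606. Only gd12 replicate 15 and gd11 replicate 17 lay within that range, and the other early arrays lay above it. No adjacent change was called, and the one to gd14 was -0.62 (adjusted p = 0.0788), which was called without gd11 replicate 17, at -0.62 (adjusted p = 0.0428). From gd11 to pnd2 Cldn5 fell from 823 ± 242 to 479.8 ± 86.1 (log2 change -0.72 ± 0.21 SE, adjusted p = 0.00912), with overlapping ranges. The 8 endothelial markers, which include Pecam1 and Cdh5, summed to 3385, 2956, 6719.9, 5723 and 7763 at gd11 and 2979 to 3816 at pnd2. Of these, 5 fell and 2 rose over the course, against 24.4% and 24.2% of all genes. The gd11 arrays with the lowest and the highest sum, replicates 17 and 20, were those with the lowest and highest Cldn5. The part of the endothelial markers in the fall of Cldn5 was not tested.

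Cldn12 (1433781_a_at), a claudin that lacks the usual scaffold-binding end, read 1984, 2237, 1441, 1621 and 1377 at gd11 and 1377, 1195 and 1355 at gd12. Later arrays ran from 842 to 1425, lowest at gd16. It fell from 1732 ± 368 to 1238 ± 163 (log2 change -0.46 ± 0.14 SE, adjusted p = 0.0102), with 1 pnd2 array among the gd11 arrays. The call was lost without pnd2 replicate 2, at -0.40 (adjusted p = 0.0561), and without gd11 replicates 16 and 17, the 2 highest arrays, at -0.26 (adjusted p = 0.0799). In a fit of gd11 and pnd2 alone its adjusted p was 0.0521. The second set, 1433782_at, gave -0.56 (adjusted p = 0.0153), and its stage means were up to 2.03-fold apart, lowest at gd18. At gd12 the change of Cldn12 was -0.38 (adjusted p = 0.0612). It was called without gd11 replicate 18, at -0.44 (adjusted p = 0.0343), or 20, at -0.45 (adjusted p = 0.0248).

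Tjp1 (1417749_a_at) encodes ZO-1, the scaffold that binds claudins to actin. It ranged over the 20 testis arrays from 3364 to 5107. It read 5107, 4210.2 and 4601 at gd14 and 3460.5, 3475 and 3723 at gd16, with no overlap, and this fall was called (log2 change -0.38 ± 0.10 SE, adjusted p = 0.0201). The call was lost without gd14 replicate 10 or 12, at -0.31 (adjusted p = 0.11) and -0.38 (adjusted p = 0.0532), and without gd16 replicate 7 or 8, at -0.36 (adjusted p = 0.0754) and -0.36 (adjusted p = 0.0527). From 4075 ± 485 at gd11 to 3452 ± 76.4 at pnd2 the fall was small (log2 change -0.23 ± 0.09 SE, adjusted p = 0.0367) with overlapping ranges. It was lost without gd11 replicate 18, 19 or 20, at -0.20 (adjusted p = 0.0771), -0.21 (adjusted p = 0.0764) and -0.19 (adjusted p = 0.0887). It was also lost without pnd2 replicate 1, 2 or 3, at -0.24 (adjusted p = 0.0737), -0.24 (adjusted p = 0.0709) and -0.21 (adjusted p = 0.109). Without gd11 replicates 16 and 17 it was -0.35 (adjusted p = 0.000857). It was lost with quantile normalization, at -0.18 (adjusted p = 0.0965), with no intensity trend (adjusted p = 0.0611) and in a fit of gd11 and pnd2 alone (adjusted p = 0.1). Its change to gd12 was 0.19 (adjusted p = 0.125), and it was called with quantile normalization, at 0.26 (adjusted p = 0.0404).

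Of the 5 adjacent comparisons, gd12 against gd11 had the most members called. There 1 rose (Cldn11) and 5 fell (Cldn1, Cldn4, Cldn6, Cldn7 and Ocln), so that 6 of 10 were called against 21.4% of all genes, of which 11.2% rose and 10.2% fell. Because the members were chosen with earlier results of these data known, this excess does not set them apart from all genes. The median change of the members was -0.98 on the log2 scale, against -0.01 over all genes. In 3 members the ranges did not overlap, against 20.7%. The count of 6 fell to 2 without gd12 replicate 14 and to 1 without replicate 15. In a fit of the gd11 and gd12 arrays alone limma called 0, with 7 members at an unadjusted p below 0.05.

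At gd14 against gd12, 1 rose (Cldn1) and 1 fell (Cldn6), 2 of 10 against 18.7% (11.4% higher and 7.34% lower), and 4 did not overlap against 37.5%. The call count was 0 without gd14 replicate 11, with 3 members at an unadjusted p below 0.05, and 1 without gd12 replicate 13 or gd14 replicate 10. At gd16 against gd14, 1 rose (Cldn1) and 1 fell (Tjp1), against 10.4% (5.39% higher and 4.99% lower), and 5 did not overlap against 39.1%. The count was 1 without gd14 replicate 10 or 12 or gd16 replicate 7 or 8. In a fit of gd14 and gd16 alone Cldn11 at -0.73 (adjusted p = 0.0346), Cldn12 at -0.41 (adjusted p = 0.0249) and Ocln at 0.99 (adjusted p = 0.0301) were called too.

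At gd18 against gd16 only Ocln rose and 0 fell, 1 of 10 against 4.88% (1.7% higher and 3.18% lower), and 3 did not overlap against 28.7%. At an unadjusted p below 0.05, 2 members were higher and 0 lower. The count was 0 without gd16 replicate 7 or 8 or gd18 replicate 4 or 5, with 2 members at an unadjusted p below 0.05 each time, and 2 without gd11 replicate 19. At pnd2 against gd18, 1 rose (Cldn11) and 1 fell (Cldn6), against 7.8% (2.54% higher and 5.26% lower), and 7 did not overlap against 33.5%. The count was 1 without gd18 replicate 5 or 6 or any pnd2 array. In fits of the 2 stages alone, Cldn1 was called at gd18, at 0.78 (adjusted p = 0.00725), and at pnd2, at -0.63 (adjusted p = 0.0199), and Ocln at pnd2, at 0.98 (adjusted p = 0.00146).

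At pnd2 against gd11, which shares its arrays with the first and last adjacent comparisons, 3 rose (Cldn1, Cldn11 and Ocln) and 6 fell. The 9 called of 10 stand against 48.6% of all genes (24.2% higher and 24.4% lower), and the 6 that did not overlap against 44.6%. The limit from the choice of members holds here too. The members' median change was -0.59, against -0.03 over all genes. In the 4 adjacent comparisons after gd12, 1 or 2 of 10 members were called against 4.88% to 18.7% of all genes, counts too small to set the members apart. The members whose ranges did not overlap ran from 3 to 7 of 10 there, and the 7 at pnd2 against gd18 stand against 33.5%.

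Ordered by level, most neighbouring stages of a member could not be separated. For Cldn1 the order was gd18, pnd2, gd16, gd11, gd14 and gd12, and only gd16 against gd11 and gd14 against gd12 differed at an adjusted p below 0.05. For Ocln, ordered pnd2, gd18, gd11, gd16, gd14 and gd12, only gd18 against gd11 differed. For Cldn11, ordered pnd2, gd14, gd12, gd18, gd16 and gd11, the neighbours that differed were pnd2 against gd14 and gd16 against gd11. For Cldn4 only gd11 differed from the next, which was gd18, and for Cldn6 and Cldn7 only gd11 from gd12. For Cldn3, Cldn5, Cldn12 and Tjp1 no neighbours passed the test. Of all genes, 46.6% were called between gd16 and gd11, 47.2% between gd18 and gd11 and 31.7% between pnd2 and gd14.

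**Figure D3:**
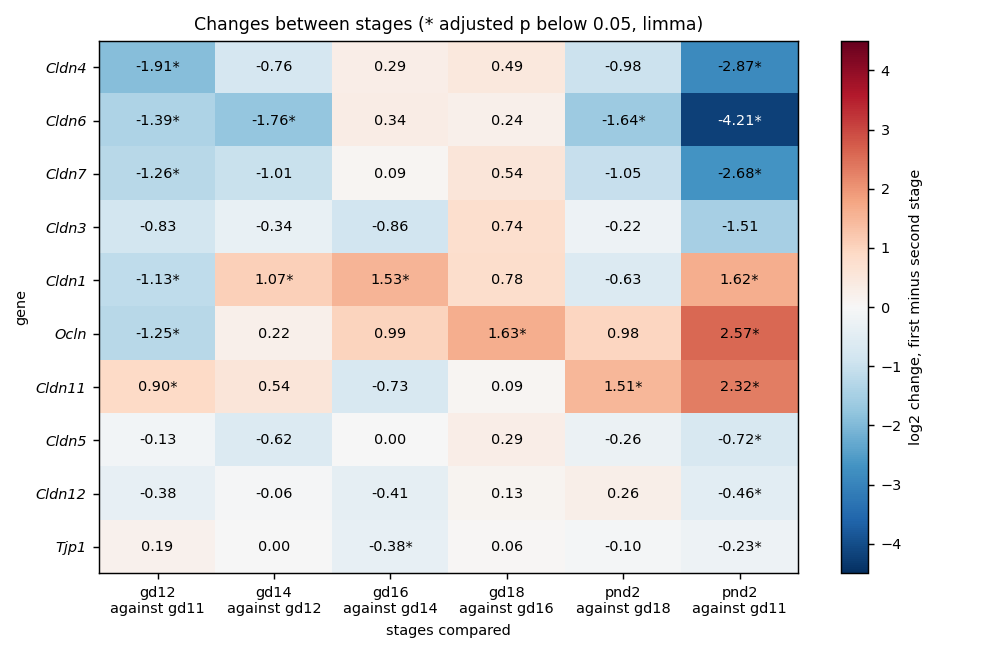
Heat map of the log2 change (first stage minus second) of each member, in rows, in the 6 comparisons, in columns, with blue for lower and red for higher. An asterisk marks a limma adjusted p below 0.05. At pnd2 against gd11 Cldn6 lies lowest, at -4.21, and Ocln highest, at 2.57.

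Of 51 further genes of tight junctions, 46 had a probe set and 42 were tested. These were other claudins, other membrane proteins of the junction, scaffolds and the apical polarity complexes, and 30 of the 42 varied with stage by the F-test, about the 68.3% of all genes. Across adjacent stages 5, 3, 2, 1 and 4 were called in order of age, against 21.4%, 18.7%, 10.4%, 4.88% and 7.8% of all genes. All 5 at gd12 fell and 0 rose (1 higher at an unadjusted p below 0.05). The gd12 count was 8 without gd11 replicate 16, 8 without gd12 replicate 13 and 3 without gd12 replicate 14 or 15. Without gd11 replicate 16 the counts at gd14, gd18 and pnd2 were 8, 5 and 8. The gd16 count was 1 without gd16 replicate 7 or 9, the gd18 count 2 without gd11 replicate 17 or gd18 replicate 6, and the pnd2 count 2 without pnd2 replicate 3. From gd11 to pnd2, 21 were called against 48.6%, 8 higher and 13 lower. By group, that was 1 of 9 other claudins higher and 2 lower, 4 of 10 other membrane proteins higher and 2 lower, 1 of 14 scaffolds higher and 7 lower, and 2 of 9 polarity genes higher and 2 lower. The lists' median change from gd11 to pnd2 was -0.43 for the claudins, 0.10 for the membrane proteins, -0.50 for the scaffolds and -0.02 for the polarity genes, against -0.03 over all genes.

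Among the claudins, Cldn8, a claudin of the distal nephron and collecting duct, fell from 766 ± 509.5 to 142 ± 138 (log2 change -2.56 ± 0.63 SE, adjusted p = 0.00672) at gd12. It stood at 2.28 ± 0.904 (log2 change -4.69 ± 0.63 SE, adjusted p = 4.92e-06) at pnd2, near background. Cldn9, the next gene to Cldn6 on chromosome 17, went at gd12 from 218 ± 158 to 66.9 ± 57.6 (log2 change -1.42 ± 0.41 SE, adjusted p = 0.0193), and its change at pnd2 against gd11 was -1.43 (adjusted p = 0.00746). Cldn2, a pore-forming claudin, fell at gd14 from 174 ± 100.4 to 19.1 ± 8.75 (log2 change -2.15 ± 0.50 SE, adjusted p = 0.00497). Cldn18, the claudin of stomach and lung, fell from gd18 to pnd2 from 129 ± 56.5 to 21.7 ± 14.7 (log2 change -1.77 ± 0.41 SE, adjusted p = 0.014). The gd12 call of Cldn8 was lost without gd12 replicate 15, at -1.51 (adjusted p = 0.073), and that of Cldn9 without gd12 replicate 14, at -1.29 (adjusted p = 0.0777), or 15, at -1.05 (adjusted p = 0.144). In a fit of gd11 and gd12 alone neither was called (adjusted p = 0.0875 and 0.115). Without gd11 replicates 18 and 19 both calls of Cldn9 were lost, at -0.93 (adjusted p = 0.0902) for gd12 and -0.95 (adjusted p = 0.0528) for pnd2, and the latter also with the mean of its probe sets, at -0.86 (adjusted p = 0.0709). The Cldn2 call was lost without gd12 replicates 13 and 14, at -1.58 (adjusted p = 0.195), and without both pairs, at -1.58 (adjusted p = 0.0681). Without gd12 replicates 13 and 14, and without both pairs, the gd12 change of Cldn8 was -4.65 and -5.38. That of Cldn9 was -2.15 and -2.58, with only gd12 replicate 15 left each time. With the pseudocount at the 40th percentile the change of Cldn2 was -1.37 (adjusted p = 0.0193) and that of Cldn18 -1.08 (adjusted p = 0.00818). The Cldn18 call was lost without gd18 replicate 6, at -1.51 (adjusted p = 0.0769), or pnd2 replicate 3, at -1.48 (adjusted p = 0.068).

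Of the other membrane proteins, Cxadr, which encodes an adhesion receptor for coxsackie and adenoviruses, fell from gd11 to gd12 from 1364 ± 324 to 617 ± 7.61 (log2 change -1.08 ± 0.16 SE, adjusted p = 9.27e-05). Jam2, an adhesion molecule of endothelial and Sertoli junctions, rose from gd11 to pnd2 from 338 ± 309 to 1725 ± 67.5 (log2 change 2.74 ± 0.45 SE, adjusted p = 5.72e-05). Lsr, which encodes angulin-1 of tricellular contacts, rose from 535 ± 221 to 2727 ± 225 (log2 change 2.42 ± 0.27 SE, adjusted p = 6.80e-07). Marveld2, which encodes tricellulin and neighbours Ocln, rose by 1.50 (adjusted p = 0.0022). Marveld3 and the endothelial Esam fell from gd18 to pnd2, with changes of -1.53 (adjusted p = 0.0202) and -0.86 (adjusted p = 0.013). The Marveld3 call was lost without gd18 replicate 6, at -1.36 (adjusted p = 0.0908), pnd2 replicate 1, at -1.46 (adjusted p = 0.0661), or pnd2 replicate 2, at -1.56 (adjusted p = 0.0527). With the pseudocount at the 40th percentile the change of Marveld3 was -0.93 (adjusted p = 0.0295). The Esam call was lost without pnd2 replicate 3, at -0.71 (adjusted p = 0.0649). Without gd11 replicates 16 and 17 the rise of Marveld2 was 0.97 (adjusted p = 0.00333).

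Of the scaffolds, Amot, which encodes angiomotin, fell at gd16 from 2059 ± 147 to 1089.5 ± 63.8 (log2 change -0.90 ± 0.21 SE, adjusted p = 0.0123) and fell over the course, at -1.83 (adjusted p = 2.25e-07), or -1.12 (adjusted p = 3.78e-06) with the mean of its probe sets. Magi3 rose at gd16 from 929 ± 57.8 to 1495 ± 153 (log2 change 0.67 ± 0.13 SE, adjusted p = 0.00322). Mpdz, which encodes the scaffold MUPP1, fell at gd14, with a change of -0.31 (adjusted p = 0.0275), and at gd18, with -0.51 (adjusted p = 0.00436), and Ybx3, a transcription factor that binds ZO-1, fell at gd14, with -0.43 (adjusted p = 0.00811). The Amot call at gd16 was lost without gd16 replicate 7, at -0.87 (adjusted p = 0.0531), or 9, at -0.89 (adjusted p = 0.0527). With the mean of a gene's probe sets the calls of Magi3, at 0.33 (adjusted p = 0.246), and of Mpdz, at -0.46 (adjusted p = 0.116) for gd14 and -0.52 (adjusted p = 0.157) for gd18, were lost. The gd14 call of Mpdz was also lost without gd12 replicate 13 or 14, at -0.25 (adjusted p = 0.114) and -0.32 (adjusted p = 0.0568), and without gd14 replicate 10 or 11, at -0.29 (adjusted p = 0.0911) and -0.29 (adjusted p = 0.0901). Without gd12 replicates 13 and 14 the calls of Ybx3 and Mpdz at gd14 were lost, at -0.45 (adjusted p = 0.0729) and -0.21 (adjusted p = 0.42). In the apical polarity genes no adjacent comparison had a call, with at most 1 gene at an unadjusted p below 0.05 in any of the 5.

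The genes whose stage means most resembled those of a member were found by the root mean square distance between centred profiles over the 6 stages, for the 7 members whose stage means lay at least 2-fold apart. These include Cldn3, which did not pass the F-test. Nearest to Cldn6 were Prom1 (0.24 on the log2 scale), Alx1 and Col2a1 (0.26 each). Nearest to Cldn7 were Chrna3 (0.13), Car14 (0.15) and Soga3 (0.17), and to Cldn4 Esrrg (0.10), Snap25 (0.12) and Angpt1 (0.13). Nearest to Cldn3 were Prex2 (0.10), Cth (0.12) and Aqp3 (0.15).

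For the genes that rose, the nearest to Cldn1 were Lgi2 and Mfap4 (0.27 each) and Itih2 (0.31). Nearest to Ocln were Asb2 (0.26), Rtl3 (0.32) and Msln (0.34), the last a marker of mesothelium. Nearest to Cldn11 were Smim22 (0.25), Rhbdf2 (0.26) and Zc3h6 (0.29). No gene stood among the nearest 3 of more than 1 member.

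Against the whole newborn, the testis at pnd2 held less of most claudins. The reference is 1 array, so this comparison has no replicate check and no test. Of the 10 members, 6 were at least 2-fold lower at pnd2, against 17.3% of all genes, and 2 were at least 2-fold higher, against 17.5%. Cldn7 read 2346 on the reference (log2 difference, pnd2 minus reference, -4.63), Cldn4 824 (-4.27) and Cldn3 1079.7 (-4.01). Cldn1 read 1894 (-1.75) and Cldn5 1828 (-1.90). By the representing sets, no testis array of any stage exceeded the reference in these 5 genes. Of them, Cldn3, Cldn4, Cldn5 and Cldn7 were nevertheless highest at gd11 within the testis. The second set of Cldn1, 1450014_at, read 515 on the reference and 561 on gd18 replicate 6. Its mean log2 values were 8.15 at pnd2 and 9.07 on the reference, less than 2-fold apart.

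Cldn6 was low in both, at 86 on the reference (-1.78), and 9 testis arrays lay above it. Cldn11 read 211 (1.73) and Ocln 455 (1.42), so both were higher in the testis at pnd2. The second set of Ocln had mean log2 values of 8.72 at pnd2 and 8.16 on the reference, less than 2-fold apart. Cldn12 read 1254 (-0.03) and Tjp1 3574 (-0.05), about level with pnd2. The second set of Cldn12 was not level, at 952 on the reference and 613 ± 72 at pnd2. Of 7 measured epidermis markers, which include Krt5 and Krt14, the sum on the reference was 105603, against 1109 to 2111 on the testis arrays. Its part in the reference's claudin levels was not tested.

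**Figure D4:**
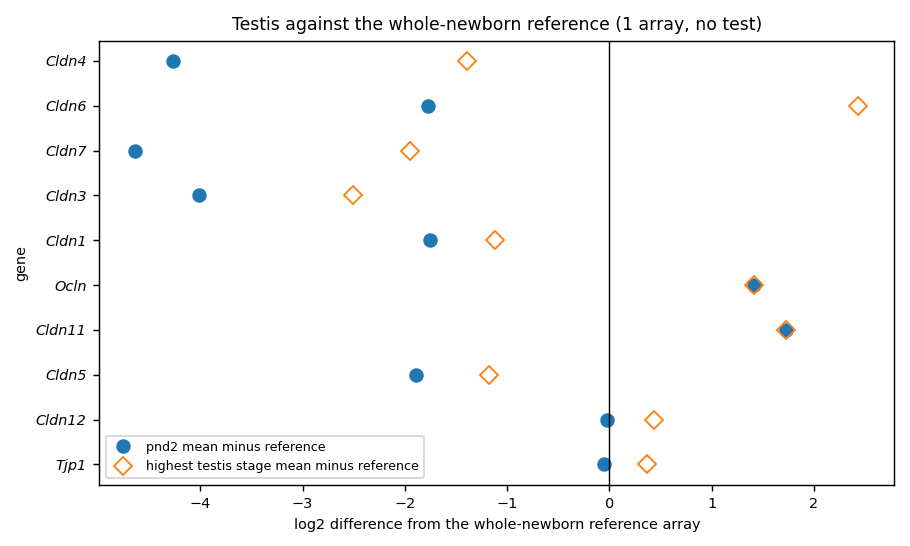
Log2 difference of each member from the single whole-newborn reference array, for the pnd2 mean (filled circles) and for the highest testis stage mean (open diamonds), with the testis higher to the right. Cldn7, Cldn4 and Cldn3 lie lowest at pnd2, at -4.63, -4.27 and -4.01, Cldn11 and Ocln lie above 0, and the gd11 mean of Cldn6 lies at 2.43.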

How the data were processed

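The authors' deposited table holds 1 intensity per probe set on a linear scale for 21 arrays, and the submitters' processing notes name GCOS, Affymetrix's operating software. The sources used here do not give its version, algorithm or genome build. From the values, each array's mean, trimmed by 2% at both ends, was 500. Detection calls were not used. Probe sets were named from the platform's annotation, and those with several genes (932), none, or controls (64) were left out.

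Intensities were used as deposited, on the scale log2(intensity + 22.4). The constant 22.4 is the 20th percentile over the testis arrays, so folds of dim genes are understated. A probe set was kept if 3 or more of the 20 testis arrays had it over the array's own 40th percentile, which 16 of the members' 18 did, and each gene was represented by the set with the highest mean. The 14338 genes entered 1 limma fit (3.58.1, R 4.3.3; lmFit and eBayes with an intensity trend) of 6 stage means with 14 residual and 4.94 prior degrees of freedom, tested on simulated data first. The spread of a gene is shared by all stages, so a member that varied at gd11 is less readily called later. A call is an adjusted p below 0.05 (Benjamini-Hochberg over all genes within a comparison). The comparisons were the 5 adjacent pairs of stages and pnd2 against gd11. The labels name no batch, and no pair of arrays held identical values.

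The members and gene lists were chosen with earlier results of these data known. Named genes are all members, up to 3 called genes of largest change in each direction among the other tight junction genes per comparison, the 3 nearest profiles of a member, and the first 2 markers of a list that were measured; genes named outside this rule were chosen after their values were seen. Alternatives were the pseudocount, the filter, the choice of probe set, quantile normalization, the intensity trend, the samples in the fit and the arrays left out. Promoters are from RefSeq (GRCm38.p6), and all 10 members matched.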

Additional observations from a re-analysis of the deposited data

Results flagged for a closer look

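Among the 18 member values tested at gd11 for a lone array, 2 stood apart, both of Cldn1 and both on replicate 19. Probe set 1437932_a_at read 359 there, and the next highest gd11 array 155, so the gap was 0.793 of the range, against a 95% limit of 0.71 for 5 arrays. Probe set 1438850_at read 12.3, with the next at 2.6 and a gap of 0.811 of the range, but all its values were near background. The other Cldn1 set that passed the filter, 1450014_at, had no lone array at gd11. It read 112 on replicate 19 and 115 on replicate 18. Chance marks about 1 in 20 such groups. Stages of 3 arrays were not tested. Replicate 19 also held the highest duct marker sum at gd11, whose part in the value was not tested.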

How the results depend on the processing

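Of 1920 changes of single members under the alternatives, 1812 kept their side of the threshold, 74 lost a call, 34 gained one and 0 calls turned direction. Of 576 changes of the other tight junction genes named, 547 kept their call, 29 lost it and 0 turned direction. Across the 20 fits without 1 array, the members called ran over 1 to 6, 0 to 3, 1 to 3, 0 to 2, 1 to 2 and 7 to 10 in the 6 comparisons in order (reported counts 6, 2, 2, 1, 2 and 9), and the other tight junction genes over 3 to 8, 2 to 8, 1 to 3, 1 to 5, 2 to 8 and 18 to 26 (reported counts 5, 3, 2, 1, 4 and 21). Fits of only the 2 stages compared called 0, 5, 2 and 4 members at gd12, gd16, gd18 and pnd2 against the stage before, and 2, 5, 7, 4 and 8 other genes over the 5 steps.

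With the pseudocount at the 40th percentile 1 member was called at pnd2 against gd18, and at the 10th percentile 2 other genes at gd18. The mean of a gene's probe sets gave 2 members at gd18 and 1 other gene at gd16. Every probe set on its own gave 2 members at gd18, and 7, 4 and 2 other genes at gd14, gd16 and gd18. Quantile normalization gave 3 other genes at gd18. Without gd11 replicates 16 and 17, 5 members were called at gd16, and 10, 8, 6, 6 and 10 other genes over the 5 steps. Without gd12 replicates 13 and 14, limma called 0 members and 0 other genes at gd14, with 1 and 6 at an unadjusted p below 0.05. Without all 4 arrays, added after seeing the data, 1, 5 and 4 members were called at gd14, gd16 and pnd2 against gd18, and 8, 6, 6 and 10 other genes at gd12, gd16, gd18 and pnd2 against gd18. Without gd11 replicates 18 and 19, also added after seeing the data, 2 members were called at gd18 and 5 other genes at gd14.

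Against the reference, the count of members at least 2-fold lower at pnd2 was within 1.5 times 6 under each alternative. The largest shifts were those of Cldn6, to -2.50 and -0.96 with the pseudocount at the 10th and 40th percentile, and Cldn4, to -3.23 with the latter. The cause of these differences was not tested. No paired analysis was possible because replicate numbers run on through the series and the stages share none. Values near background, which Cldn3, Cldn4 and Cldn6 had on most later arrays, limit the size of their falls. The same limit holds for the gd12 means of Cldn1 and Ocln, and for Cldn7 at pnd2, where 1 of 3 arrays lay above 71.6.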
